A study of Mus musculus with 162 samples.

Results

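The comparison described here asked which changes that MC903 makes in mouse cheek skin differ when the leukotriene B4 receptor BLT1 is missing. MC903 (calcipotriol) is a vitamin D analogue that, painted on skin, gives an inflammation used as a model of atopic dermatitis. The members were all libraries labelled skin, no injection and day 8 from BLT1 KO mice and from wild-type mice, which came to 17 of the 162 libraries in the series. Of these, 6 were BLT1 KO (3 MC903, 3 ethanol) and 11 were wild-type (5 MC903, 6 ethanol). All mice are labelled as adult male C57BL/6, and all received 20 µL of 0.2 mM MC903 in ethanol or ethanol alone once a day on the cheek. The labels and methods do not describe the BLT1 KO allele or say whether its wild-type controls were littermates.

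The wild-type libraries were treated as 2 cohorts, A (3 MC903, 3 ethanol) and B (2 MC903, 3 ethanol). Titles of cohort A hold a library name in brackets and those of cohort B do not. The BLT1 KO titles hold no such name either. The BLT1 KO libraries were treated as a library series of their own, so genotype and library series cannot be told apart. Depth was 29233248 to 39629520 counts on genes in the wild-type libraries and 49050822 to 67342879 in the BLT1 KO libraries. The 10 keratinocyte markers summed to between 10350 and 32639 CPM (cpm, counts scaled to the same library total) in every one of the 17 libraries. The labels call replicates separate samples and do not tie them to animals, so p-values measure the spread between these samples.

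Leukotriene B4 is a lipid made from arachidonic acid by 5-lipoxygenase (Alox5), its activating protein (Alox5ap) and leukotriene A4 hydrolase (Lta4h). It draws neutrophils and other leukocytes into tissue through BLT1, the high affinity receptor encoded by Ltb4r1, and more weakly acts on BLT2, encoded by Ltb4r2. In skin, BLT1 on neutrophils is known for the recruitment of these cells in allergic and autoimmune inflammation.

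The receptor gene was checked first. Ltb4r1 (ENSMUSG00000046908, mm10 chromosome 14, 55765962 to 55768494, plus strand) was measured at 2.35, 3.18 and 3.72 cpm in the 3 BLT1 KO ethanol libraries and at 10.4, 13.3 and 16 cpm in the 3 BLT1 KO MC903 libraries. In wild-type ethanol skin it ranged from 6.78 to 9.93 cpm with a median of 8.72, and in the 5 wild-type MC903 libraries it was 32.6, 36.5, 52.8, 68.3 and 80.4 cpm. Every BLT1 KO library lay below every wild-type library of the same treatment, which is the direction the genotype labels give. The deficit was 2.81-fold in ethanol and 3.81-fold in MC903 (edgeR quasi-likelihood test, adjusted p = 0.000249 and 0.00164), and the transcript was not absent. Which part of the gene the allele removes is not given in the sources used here, so it is not known whether the remaining counts come from a deleted part. MC903 raised Ltb4r1 in both genotypes, by 2.10 on the log2 scale in BLT1 KO and 2.54 in wild-type, and the difference of -0.44 ± 0.32 (SE) did not pass the test (adjusted p = 0.457).

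**Figure D1:**
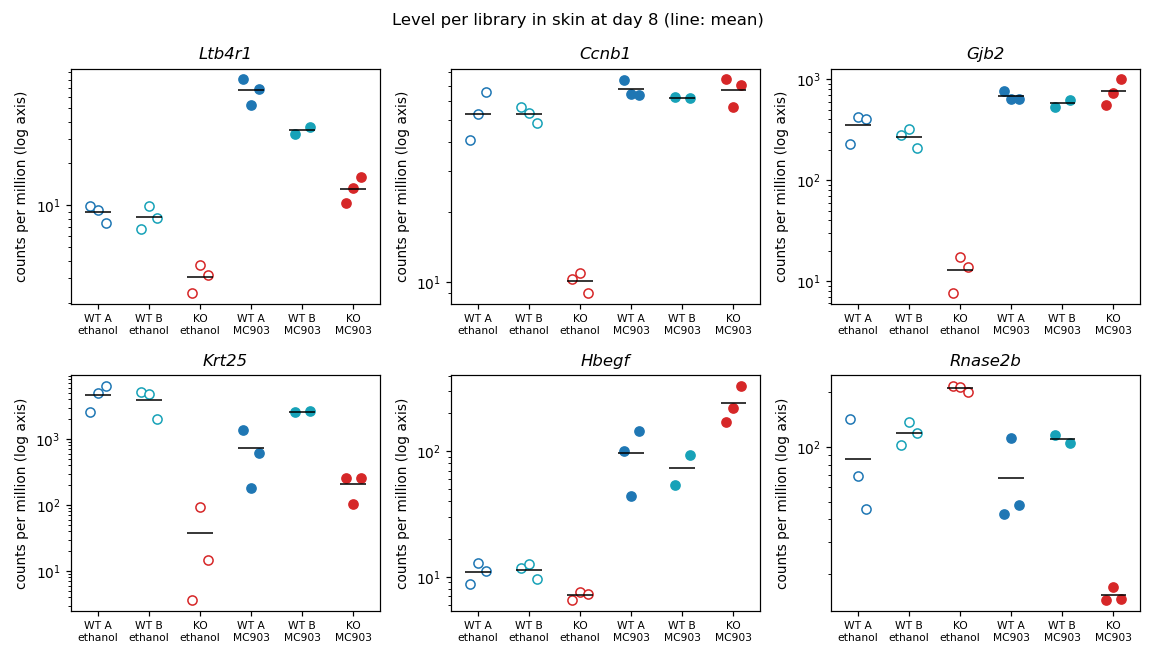
Level of 6 genes in each of the 17 libraries, in cpm on a log axis, for wild-type cohorts A and B and BLT1 KO (open points ethanol, filled points MC903, lines means). Ccnb1, Gjb2 and Krt25 are low in the 3 BLT1 KO ethanol libraries, while Hbegf is higher and Rnase2b lower in the 3 BLT1 KO MC903 libraries than in any wild-type MC903 library.

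The comparison itself was the interaction, that is the MC903 effect (MC903 minus ethanol, log2) in BLT1 KO minus the MC903 effect in wild-type, with cohort as a term. Of 27679 genes tested, 1924 passed an adjusted p of 0.05, a background of 6.95%. Without BLT1 KO MC903 replicate 3 the number was 1227. The effect in BLT1 KO was the higher of the pair for 1203 genes and the lower for 721 (background 4.35% and 2.6%). MC903 by itself changed 8416 genes in BLT1 KO (30.4%) and 6167 in wild-type (22.3%).

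Most genes that MC903 changed in wild-type skin moved the same way in BLT1 KO skin. Of the 6167 genes that MC903 changed in wild-type, 5585 had a fitted effect of the same sign in BLT1 KO. The same-sign share over all genes tested was not computed. With that sign, 3925 of the 6167 also passed the test in BLT1 KO, where 30.4% of all genes tested passed in either direction. Another 2124 did not pass it there. A called interaction with an effect that was smaller or of the opposite sign in BLT1 KO was found for 286 of the 6167 (4.64%). Of the 286, 104 rose and 182 fell in wild-type (all genes tested, 12% rose and 10.2% fell). For 99 of those 104 risen genes the level in ethanol skin was called higher in BLT1 KO than in wild-type (all genes tested, 13.9%). The ethanol difference is part of the interaction by which the 104 were chosen, so this count adds no separate evidence. None of the 104 was also called lower in BLT1 KO MC903 skin than in wild-type MC903 skin by edgeR, against 22 at an unadjusted p under 0.05, 8 genes that met all these criteria with DESeq2 and 0 with limma-voom.

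The interaction is, by construction, the genotype difference in MC903 skin minus the genotype difference in ethanol skin, so each called gene was split by which of them was larger. The ethanol difference was the larger for 1763 of the 1924 genes (91.6%), compared with 65.4% of all genes tested. Both differences are parts of the interaction, so this split describes it and adds no separate evidence. BLT1 KO and wild-type ethanol libraries did not overlap for 1687 of the 1924 genes, against a background of 24.6%, and MC903 libraries did not overlap for 304, against 9.23%. As direct contrasts, BLT1 KO and wild-type differed at 7809 genes in ethanol skin (28.2%) and at 184 in MC903 skin (0.665%, with 0.253% higher and 0.412% lower in BLT1 KO), with a median standard error of 0.3 and 0.311. The last count depended on single libraries. It was 973 without the cohort A MC903 library skin4. It was 12, 28 and 29 without BLT1 KO MC903 replicates 2, 1 and 3, 23 and 56 without cohort B MC903 replicates 1 and 2, 30 and 111 without the cohort A libraries skin1 (MC903) and skin3 (ethanol), and 77 without cohort B ethanol replicate 2. With cohort A alone it was 56 and with cohort B alone 2083.

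**Figure D2:**
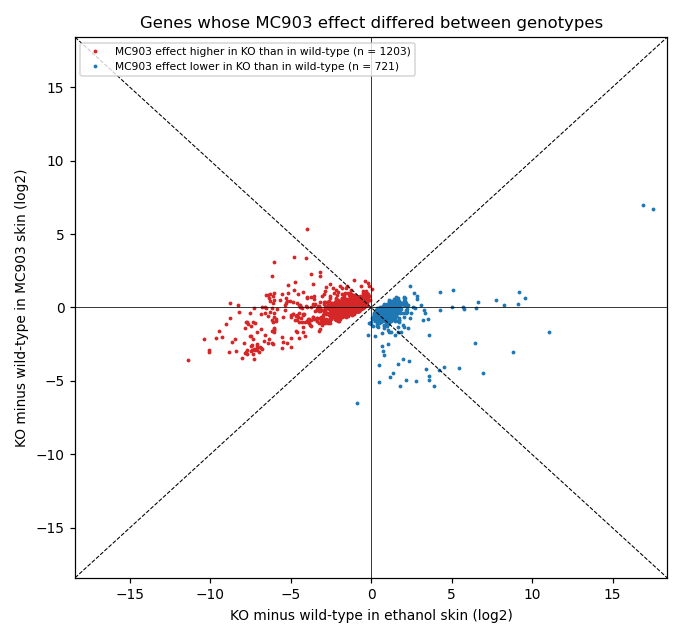
Genotype difference in MC903 skin (vertical, log2) against the genotype difference in ethanol skin (horizontal, log2) for the 1924 genes with a called interaction, in red where the MC903 effect was higher in BLT1 KO (1203 genes) and in blue where it was lower (721 genes). Between the dashed diagonals, to the left and right of the centre, lie the 1763 genes whose ethanol difference was the larger.

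The genes with a higher MC903 effect and the smallest interaction p included genes that were low in BLT1 KO ethanol skin and at or above the wild-type level after MC903. Has3, a hyaluronan synthase, was 22.6 to 33.8 cpm in wild-type ethanol skin and 2.50, 3.64 and 4.65 cpm in BLT1 KO ethanol skin. With MC903 it reached 65.3 to 101 cpm in wild-type and 118.8, 173 and 206 cpm in BLT1 KO, an interaction of 4.03 ± 0.30 (adjusted p = 3.44e-06). The ranges did not overlap in either treatment, with BLT1 KO lower in ethanol and higher in MC903.

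Gjb2, which encodes the gap junction protein connexin 26 (ENSMUSG00000046352, mm10 chromosome 14, 57098600 to 57104702, minus strand), had a wider gap. It was 207 to 418 cpm (median 301) in wild-type ethanol skin and 7.60, 13.7 and 17.2 cpm in BLT1 KO ethanol skin, whereas MC903 libraries overlapped, at 533 to 757 and 550 to 998 cpm. The interaction was 4.86 ± 0.38 (adjusted p = 3.5e-06), made of a rise of 5.88 in BLT1 KO and 1.02 in wild-type. The transcription factors Etv4 (interaction 2.76) and Bnc1 (3.56) and the peptidase inhibitor gene Pi15 (3.08) followed the same order of levels. Tyrp1, a melanosome enzyme of pigment cells, was 66 to 111 cpm in wild-type ethanol skin and 3.32, 6.27 and 7.06 cpm in BLT1 KO ethanol skin, with overlapping MC903 libraries (interaction 4.0 ± 0.37).

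Of the 20 cell cycle genes listed, 19 had a called interaction, all higher in BLT1 KO (all genes tested, 4.35%). The list median was 1.98, beside 0.012 for all genes tested. The remaining gene, Pcna, had a value of 0.47 (edgeR adjusted p = 0.0887). In wild-type, MC903 raised 7 of the 20 at a median of 0.276 (all genes tested, 12% raised). In BLT1 KO it raised all 20 at a median of 2.31 (all genes tested, 16.6% raised). All 20 were called lower in BLT1 KO ethanol skin (all genes tested, 14.4%) and none was called different in MC903 skin by edgeR. Ccnb1, the mitotic cyclin B1, was 40.7 to 65.5 cpm in wild-type ethanol skin and 8.99, 10.3 and 11 cpm in BLT1 KO ethanol skin. After MC903 it was 62 to 74 cpm in wild-type and 56.8, 70.7 and 74.6 cpm in BLT1 KO, and the interaction was 2.44 ± 0.20 (adjusted p = 4.81e-06). Bub1, a kinase of the spindle checkpoint, stood at 9.21 to 13.5 and 0.718 to 1.46 cpm in the ethanol libraries of wild-type and BLT1 KO, and its interaction was 3.37 ± 0.28. Mki67, the proliferation marker Ki-67, had an interaction of 2.69 ± 0.27, with MC903 levels of 159 to 314 and 219 to 252 cpm that overlapped. In bulk skin, fewer cells of a type and less RNA per cell cannot be told apart.

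The promoters of the 3 cell cycle genes with the smallest interaction p are shown because these genes moved together. The stretches run from 150 bases before to 30 bases after the RefSeq start in GRCm38.p6 (the mm10 assembly), 5′ to 3′ on the gene's strand, with CCAAT or its reverse complement ATTGG in capitals. They lie at chr13:100786457-100786636 (minus strand, Ccnb1), chr2:127831830-127832009 (minus strand, Bub1) and chr2:118598061-118598240 (plus strand, Bub1b, another spindle checkpoint kinase).
Ccnb1: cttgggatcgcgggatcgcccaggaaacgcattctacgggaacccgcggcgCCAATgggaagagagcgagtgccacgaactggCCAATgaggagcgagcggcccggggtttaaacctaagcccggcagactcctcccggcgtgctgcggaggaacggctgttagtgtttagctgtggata
Bub1: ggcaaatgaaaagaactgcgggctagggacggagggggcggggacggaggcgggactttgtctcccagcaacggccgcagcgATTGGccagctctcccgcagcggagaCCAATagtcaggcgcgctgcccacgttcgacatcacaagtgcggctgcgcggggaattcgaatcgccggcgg
Bub1b: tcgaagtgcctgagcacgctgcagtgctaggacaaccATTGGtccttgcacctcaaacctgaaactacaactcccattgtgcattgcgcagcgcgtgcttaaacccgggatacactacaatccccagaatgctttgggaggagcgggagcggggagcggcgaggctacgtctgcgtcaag

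All 3 stretches hold the CCAAT box, on either strand, as do 14 of the 17 cell cycle genes with a RefSeq promoter and 31.9% of the 15523 tested genes with one. The cell cycle homology element TTTGAA was searched on both strands as well and does not overlap CCAAT in its letters. It was in 7 of the 17 and in 8.8% of the tested genes. None of the 3 stretches shown holds these exact letters, and other forms of the element were not searched. These matches describe the letters of the window.

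Hair follicle genes had values in the same direction, with a wide spread. The 16 tested members included keratins of the hair shaft and inner root sheath and factors such as Shh, Lef1 and Hoxc13. All 16 had a fitted interaction of 2.37 or more, with a median of 4.07. Of these, 8 passed the test, all higher (all genes tested, 4.35%). All 16 were called lower in BLT1 KO ethanol skin (background 14.4%), by a median of 6.94 on the log2 scale. Krt25, an inner root sheath keratin, was 3.64, 14.6 and 94.6 cpm in BLT1 KO ethanol skin and 2018 to 6326 cpm in wild-type ethanol skin. With MC903 it was 103, 259 and 260 cpm in BLT1 KO, overlapping the wild-type libraries at 179.5 to 2641 cpm (interaction 4.19 ± 1.17, adjusted p = 0.0392, lost in 10 of the 17 fits that left out 1 library). The count of 8 depends on single libraries: it was 0 without BLT1 KO MC903 replicate 1, 1 without BLT1 KO ethanol replicate 1 or 3 or MC903 replicate 3, and 2 to 4 without any of 6 wild-type libraries (skin1, skin2 and skin4 of cohort A MC903, skin6 and skin7 of cohort A ethanol, and cohort B ethanol replicate 2). It was 12 without BLT1 KO ethanol replicate 2. Within cohorts, the MC903 effect on these genes was itself unlike, with 16 of 16 called lower in cohort A alone (median -2.98, background 17.5% called and 8.68% lower) and 2 of 16 in cohort B alone (median -0.53, background 9.36% called, 5.25% higher and 4.11% lower).

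The list levels of other day 8 skin groups were set beside these values. The mean log2(cpm + 0.5) of the cell cycle list in ethanol skin was 3.40 to 3.65 in BLT1 KO and 5.02 to 5.62 in wild-type. It was 3.61 to 5.12 in the 3 PBS-injected wild-type ethanol libraries, 3.51 to 4.60 in the 4 wild-type ethanol libraries labelled anti-Gr1 (an antibody injection) and 5.15 to 5.37 in the 2 TSLPR KO ethanol libraries. Salivary gland markers summed to 45618 to 446530 cpm in these anti-Gr1 ethanol libraries and 68.478 to 129.14 cpm in the PBS ethanol libraries, against 58.969 to 1170 cpm in BLT1 KO and 34.32 to 53.022 cpm in wild-type ethanol skin, and their part in these list levels was not tested. The hair follicle list was 0.20, 2.02 and 3.90 in BLT1 KO ethanol skin, 8.39 to 9.86 in wild-type and 6.10 to 9.10, 3.39 to 7.89 and 7.18 to 9.38 in the PBS, anti-Gr1 and TSLPR KO ethanol groups.

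**Figure D3:**
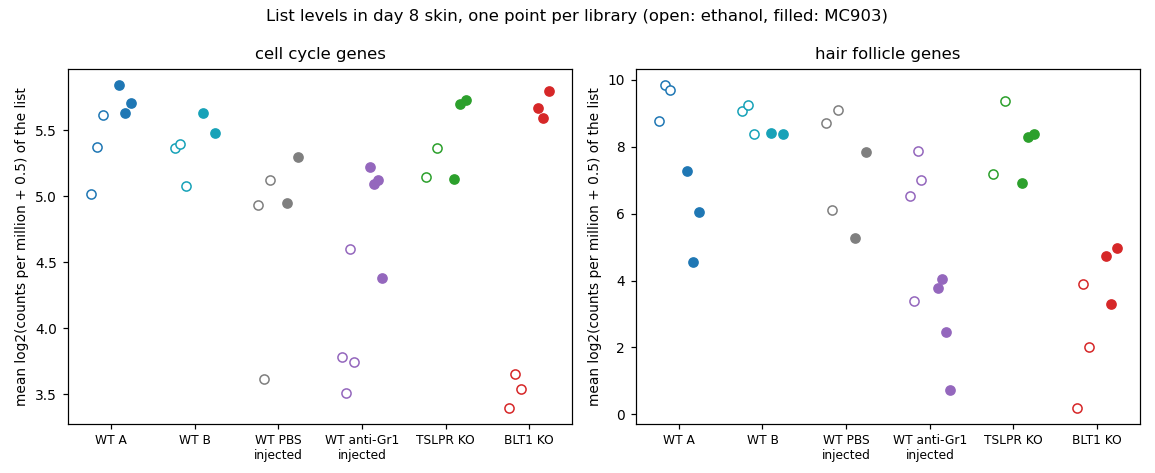
Mean log2(cpm + 0.5) of the 20 cell cycle genes (left) and the 16 hair follicle genes in the files (right) in each day 8 skin library, by group, with ethanol as open and MC903 as filled points. The BLT1 KO ethanol libraries sit at 3.40 to 3.65 and 0.20 to 3.90, below every uninjected wild-type library.

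The mean level of the hair follicle list was added to the fit as a covariate, and PBS-injected libraries were used in place of the uninjected wild-type libraries, both alternatives chosen after seeing the data. With the covariate 193 genes were called. Of the 1924 genes, 172 remained called in the same direction, while the median standard error of the interaction rose from 0.432 to 0.586. With the covariate, 11 of the 20 cell cycle genes were called by edgeR. The covariate is the level of the hair follicle list itself, so calls for members of that list are not read from this fit. Its level also did not overlap between genotypes in ethanol skin (0.20 to 3.90 in BLT1 KO, 8.39 to 9.86 in wild-type). It thus shares variation with the interaction for every gene. A call lost in this fit therefore cannot be read as the absence of a difference. The PBS group had 2 MC903 and 3 ethanol libraries. Its MC903 libraries held 423.15 to 10966 cpm of salivary gland markers, against 42.076 to 72.37 cpm in BLT1 KO MC903 skin. Their part in this fit was not tested. With the PBS-injected libraries as the only wild-type animals, 1914 of the 1924 genes kept their fitted direction. In that fit 8 genes were called, 6 of them shared in direction with the 1924, at a median standard error of 0.505. Those 6 were Ube2c, Stc2, Acox2, Ces4a, Rnase2b and Ear6, named here after their values were seen. None of the 20 cell cycle genes was called with these wild-type libraries by edgeR, at values of 2.30 for Ccnb1, 3.03 for Bub1, 2.57 for Bub1b and 2.65 for Mki67 (adjusted p = 0.146, 0.139, 0.126 and 0.178).

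The genes that differed on the MC903 side were few. The MC903 difference was the larger for 161 of the 1924 genes, and 34 of them were also called in the direct contrast of MC903 skin, 13 with a higher and 21 with a lower MC903 effect in BLT1 KO. The genes of this set described next are among the 10 with the smallest interaction p in each direction, a rule added after seeing the data.

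Hbegf, Epgn, Clcf1 and Fosl1 rose further in BLT1 KO than in wild-type, and Fgf7 rose in BLT1 KO. Hbegf, heparin-binding EGF-like growth factor, was 171, 220 and 329 cpm in BLT1 KO MC903 skin and 43.6, 53.3, 93.6, 101 and 144 cpm in wild-type MC903 skin, with no overlap. In ethanol skin BLT1 KO was the lower, at 6.52 to 7.56 against 8.75 to 12.9 cpm. The rise over ethanol was 5.07 in BLT1 KO and 2.94 in wild-type, an interaction of 2.13 ± 0.43 (adjusted p = 0.00644). Epgn, the ligand epigen, was 167 to 257 and 78 to 152 cpm in the same groups (interaction 1.26 ± 0.29, adjusted p = 0.0136). Clcf1, a cytokine of the IL-6 family, was 41.5, 53.4 and 61.6 cpm in BLT1 KO and 13.8 to 21.3 cpm in wild-type MC903 skin, with ethanol libraries overlapping at 2.78 to 5.36 cpm (interaction 1.87 ± 0.27, adjusted p = 0.00051). Fosl1, an AP-1 transcription factor, went from 1.21 to 2.88 up to 24.7 to 44.4 cpm in BLT1 KO, compared with 8.35 to 17.2 cpm in wild-type MC903 skin (interaction 2.12 ± 0.42). Fgf7, keratinocyte growth factor, rose in BLT1 KO (1.01, adjusted p = 0.00205) and had a value of -0.21 in wild-type (adjusted p = 0.404), an interaction of 1.22 ± 0.27.

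With either cohort alone, Hbegf and Clcf1 stayed called (Hbegf 1.89 with A and 2.40 with B, Clcf1 1.81 and 1.90). Epgn, Fosl1 and Fgf7 were called with A and had adjusted p = 0.142, 0.0681 and 0.054 with B. With the PBS-injected animals as the only wild-type the values were 2.09 for Hbegf, 2.78 for Fosl1, 1.34 for Epgn, 1.45 for Clcf1 and 0.93 for Fgf7, and none was called (edgeR adjusted p from 0.082 for Hbegf and Fosl1 to 0.285 for Epgn). Also, of the 5 only Clcf1 was called with the hair follicle covariate.

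Among the genes that fell in BLT1 KO were ribonucleases of the eosinophil-associated family, small secreted RNases made by eosinophils and macrophages. Rnase2b (ENSMUSG00000059606, mm10 chromosome 14, 51162260 to 51163018) was 14.4, 14.6 and 16.9 cpm in BLT1 KO MC903 skin and 43.1 to 115.9 cpm (median 105) in wild-type MC903 skin. In ethanol skin it was 202, 213 and 216 cpm in BLT1 KO and 45.8 to 143 cpm in wild-type, so the libraries did not overlap in either treatment and the order of the genotypes turned. The interaction was -3.54 ± 0.45 (adjusted p = 0.000145), made of a fall of 3.78 in BLT1 KO and a value of -0.24 in wild-type. Ear6 (ENSMUSG00000062148, chromosome 14, 51853699 to 51854643) was 0.153, 0.165 and 0.244 cpm in BLT1 KO MC903 skin and 1.20 to 4.89 cpm in wild-type MC903 skin, while ethanol libraries overlapped at 3.51 to 4.97 and 1.97 to 5.99 cpm. Its interaction was -4.40 ± 0.63 (adjusted p = 0.00049). Rnase2b and Ear6 kept their call under all 29 alternatives tried, with ranges of -3.84 to -2.95 and -4.78 to -4.09. These genes are close copies of each other, and how reads shared between copies were counted is not given beyond the counting tool. Rnase2b and Ear6, like Gjb2, lie on chromosome 14, which also holds Ltb4r1, the gene targeted in BLT1 KO. The part of this shared location in their values was not tested.

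Of the 8 eosinophil markers listed, 3 had a called interaction, all lower (Ear1, Ear2 and Ear6), against 2.6% of all genes. The list median was -1.51. Markers most used for eosinophils, named here after their values were seen, were not called. Prg2, the major basic protein, had an interaction of 1.81 (95% interval -1.48 to 5.11), Epx, eosinophil peroxidase, 2.66 (-2.95 to 8.27) and Siglecf -1.51 (-3.01 to -0.02). Of 15 macrophage and monocyte markers 1 was called, beside 6.95% of all genes. This was Retnla, a gene of alternatively activated macrophages (-2.15 ± 0.61, edgeR adjusted p = 0.042). The Retnla call was lost in 13 of the 17 fits that left out 1 library (adjusted p up to 0.0977), and Ear1 was lost without BLT1 KO MC903 replicate 3 or ethanol replicate 3 (adjusted p up to 0.0806).

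Other genes fell further in BLT1 KO than in wild-type. Cldn23, a tight junction claudin, fell by 4.13 in BLT1 KO and by 1.73 in wild-type, to 0.895, 1.24 and 1.58 cpm against 2.38 to 5.69 cpm (interaction -2.40 ± 0.36). Cfap57, a gene of cilia and flagella, fell by 5.36 and 2.75 (interaction -2.62 ± 0.39). Chit1, the chitinase chitotriosidase, and Bcl6, a transcriptional repressor of immune cells and epidermis, had interactions of -1.37 ± 0.19 and -1.18 ± 0.18 and were higher in BLT1 KO ethanol skin (85.9 to 93.9 against 29.6 to 41.1 cpm for Chit1, with overlapping MC903 libraries).

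All 21 antimicrobial and stress epidermal genes rose with MC903 in BLT1 KO and 20 of 21 in wild-type (all genes tested, 16.6% and 12%). Of the 21, 6 had a called interaction, beside 6.95% of all genes. These were 5 higher (Krt17, Krt16, Sprr1b, Klk13 and S100a7a) and 1 lower (Lcn2). Sprr1b, a cornified envelope protein, rose by 6.43 in BLT1 KO and 4.01 in wild-type, from ethanol levels of 1.60 to 8.55 and 7.80 to 32.2 cpm. Lcn2, the iron-trapping antimicrobial lipocalin, rose by 2.18 and 3.65, from 8.49 to 13.6 and 2.53 to 3.37 cpm, to MC903 levels that overlapped. Leaving out BLT1 KO MC903 replicate 3 or ethanol replicate 3 took this count to 3, and both Sprr1b and Lcn2 then missed the threshold (adjusted p up to 0.0725 for Sprr1b and 0.0648 for Lcn2). Lcn2 also missed it without BLT1 KO MC903 replicate 2 (adjusted p = 0.0533).

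Of 24 epidermal barrier genes, 8 had a called interaction, beside 6.95% of all genes. Klk7 and Tchh were higher (all genes tested, 4.35%) and Lce1a1, Lce1b, Lce1c, Lce1d, Krt1 and Klk5 lower (2.6%). Tchh had an interaction of 5.96, beside medians of -0.555 for this list and 4.07 for the hair follicle list. Krt1, a keratin of differentiating epidermis, rose by 1.61 in wild-type and had a value of 0.39 in BLT1 KO (adjusted p = 0.304), where ethanol skin already held 770 to 923 cpm against 252 to 595 cpm. The Krt1 call (adjusted p = 0.0446) was lost in 12 of the 17 fits that left out 1 library. The late cornified envelope genes are near-identical neighbours whose reads may be split. This count was 2 without BLT1 KO ethanol replicate 3, and 3 to 5 without any other BLT1 KO library, any of skin2, skin6 and skin7 of cohort A, or cohort B MC903 replicate 1 or ethanol replicate 2.

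Sebaceous gland genes were called higher in BLT1 KO ethanol skin for 6 of 8 members (all genes tested, 13.9%). Of the 8, 4 had a called interaction, all lower (Mc5r, Awat1, Far2 and Scd1), against 2.6% of all genes. The number was 6 without the cohort A ethanol library skin3 and 3 without BLT1 KO MC903 replicate 3. Awat1 lost its call in 1 of the 17 fits that left out 1 library (edgeR adjusted p up to 0.0647). Scd1, a fatty acid desaturase, was 6658 to 9679 cpm in BLT1 KO ethanol skin and 1692 to 3309 cpm in wild-type ethanol skin, and MC903 libraries overlapped. Skeletal muscle markers were called higher in BLT1 KO ethanol skin for 14 of 14 members (all genes tested, 13.9%). Their summed level was 30324 to 51028 cpm, against 5455.6 to 22239 cpm in wild-type. In MC903 skin the muscle sum was 4876 to 12838 and 3221.3 to 5621.7 cpm, and no member had a called interaction (1 at an unadjusted p under 0.05, and 0 with DESeq2 or limma-voom). The part of these muscle levels in the results above was not tested.

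**Figure D4:**
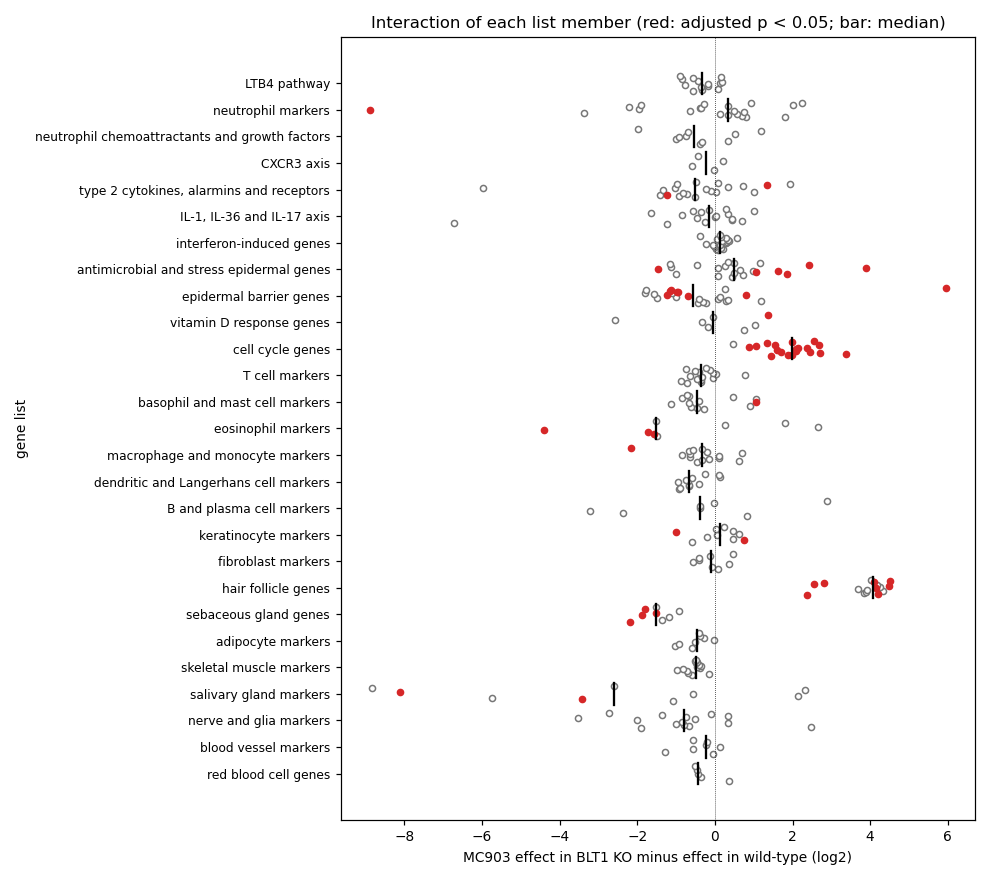
Interaction (log2, horizontal) of every tested member of each gene list, with called members in red and the list median as a bar. All members of the cell cycle list (median 1.98) and the hair follicle list (4.07) lie to the right of 0, and all 8 of the sebaceous list (-1.52) to the left.

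Genes of the leukotriene B4 pathway did not differ in their MC903 effect by the test. None of 14 members had a called interaction with edgeR, 3 had an unadjusted p under 0.05, and DESeq2 called 2 (Dpep1 and Ptgr1) and limma-voom 1. Alox5 had an interaction of -0.55 (95% interval -1.47 to 0.37), Alox5ap -0.32 (-1.10 to 0.47) and Lta4h 0.18 (-0.16 to 0.51). Ltb4r2 rose by 1.14 in BLT1 KO and 1.98 in wild-type, a difference of -0.84 (-1.48 to -0.19) that did not pass after adjustment (adjusted p = 0.117). Ptgr1, which breaks down leukotriene B4, had a value of -0.89 (adjusted p = 0.0564).

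Of 21 neutrophil markers, MC903 raised 14 and lowered 3 in BLT1 KO (all genes tested, 16.6% and 13.8%). In wild-type it raised 14 and lowered 1 (all genes tested, 12% and 10.2%). The list summed to 405.93 to 669.14 cpm in BLT1 KO MC903 skin and 150.99 to 729.46 cpm in wild-type MC903 skin. S100a9, a subunit of the calprotectin complex of neutrophils and stressed keratinocytes, was 64.1, 78.6 and 200 cpm in BLT1 KO and 19.8 to 159 cpm in wild-type MC903 skin (interaction -0.28, 95% interval -2.01 to 1.46). Of members named after their values were seen, the neutrophil collagenase Mmp8 had an interaction of -0.39 (-2.09 to 1.31), the chemokine receptor Cxcr2 0.14 (-0.56 to 0.83) and the growth factor receptor Csf3r 0.58 (-0.42 to 1.59). With edgeR, 6 of the 21 had an unadjusted p under 0.05, while DESeq2 and limma-voom called 0. Besides Ltf, they went both ways, at -2.22 for Mpo, -1.9 for Retnlg, -0.64 for Il1r2, 2.24 for Trem1 and 2 for S100a8. These did not pass after adjustment (edgeR adjusted p = 0.195 to 0.228). The single member called with edgeR was Ltf, lactotransferrin, at -8.89 ± 2.58, and its adjusted p was 0.865 without BLT1 KO ethanol replicate 3. The call was lost in 14 of the 17 fits that left out 1 library. BLT1 KO ethanol replicate 3 alone held 115.7 cpm of Ltf against 0.0748 and 0.141 cpm in the other BLT1 KO ethanol libraries, and 383 cpm of Lpo, a salivary and mucosal peroxidase. Salivary gland markers summed to 1170 cpm in this library and to at most 72.37 cpm in the other 16.

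Chemokines gave wide intervals. None of the 10 neutrophil chemoattractants and growth factors, 4 genes of the CXCR3 axis and 20 interferon-induced genes was called with edgeR, DESeq2 or limma-voom or reached an unadjusted p of 0.05. Cxcl10, a ligand of the itch-linked receptor CXCR3, was 38.7, 41 and 42.1 cpm in BLT1 KO MC903 skin and 6.78, 8.84, 18.1, 60.7 and 99.9 cpm in wild-type. It rose by 4.13 in BLT1 KO and 4.15 in wild-type, a difference of -0.02 with an interval of -1.76 to 1.71. Cxcl2, a neutrophil chemoattractant, gave 0.51 (-1.81 to 2.83), Cxcl9 0.20 (-2.04 to 2.44), Cxcl1 -0.93 (-3.30 to 1.43) and Cxcl5 1.18 (-1.37 to 3.72). Cxcl1 alone of these 5 did not overlap in MC903 skin, at 5.39 to 7.90 cpm in BLT1 KO and 1.10 to 3.90 cpm in wild-type, and its direct contrast was not called (adjusted p = 0.245). Differences in the MC903 effect within these intervals were not detectable with these libraries.

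Alarmins were not called either, and the cohorts lay apart for Tslp. Tslp, the epithelial cytokine that starts type 2 inflammation, was 5.04, 5.53 and 15.4 cpm in cohort A and 123.7 and 137 cpm in cohort B MC903 skin, with BLT1 KO at 9.26, 14.6 and 25.8 cpm. Its interaction of -0.49 (-2.22 to 1.24) was 0.88 with cohort A alone and -1.87 with cohort B alone (adjusted p = 0.54 and 0.0516). Il33, an alarmin of the epidermis, was 264, 486 and 582 cpm in BLT1 KO and 136 to 291 cpm in wild-type MC903 skin (interaction 0.34, -0.63 to 1.31). In the type 2 list, 2 of 20 genes were called, beside 6.95% of all genes. Il4ra, the receptor chain for IL-4 and IL-13, had a higher MC903 effect in BLT1 KO (1.34 ± 0.29, adjusted p = 0.01), and Ccl22, a chemokine for type 2 T cells, a lower one (-1.24 ± 0.34, adjusted p = 0.0361). Il4ra was called in all 17 fits that left out 1 library, and Ccl22 was lost in 8 of them (adjusted p up to 0.0908). No T cell marker was called (0 of 16 with edgeR, DESeq2 and limma-voom, 1 at an unadjusted p under 0.05).

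**Figure D5:**
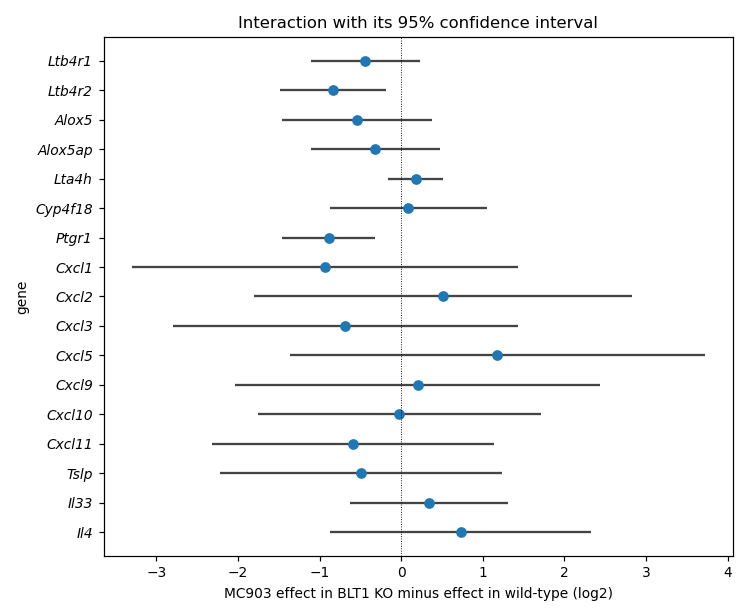
Interaction (log2) with its 95% confidence interval for leukotriene B4 pathway genes, chemokines and cytokines. The intervals of all 3 CXCR3 ligands and all 4 neutrophil chemoattractants shown include 0, from -3.30 at the lowest (Cxcl1) to 3.72 at the highest (Cxcl5).

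Vdr, the vitamin D receptor on which MC903 acts, had a called interaction (1.36 ± 0.28, edgeR adjusted p = 0.00813). Vdr was the 1 called of 7 vitamin D response genes, beside 6.95% of all genes. It was 92.3 to 107 cpm in BLT1 KO and 236 to 365 cpm in wild-type ethanol skin, and the 173 to 207 cpm of BLT1 KO MC903 skin lay within the wild-type MC903 range. The call was kept in all 17 fits that left out 1 library, and with PBS-injected wild-type only the value was 1.12 (adjusted p = 0.417).

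A few members of marker lists not described above were called. Krt15, a keratin of basal keratinocytes, was 2505 to 2831 cpm in BLT1 KO and 689 to 1246 cpm in wild-type ethanol skin and 399 to 489 and 268 to 356 cpm in MC903 skin (interaction -1.0 ± 0.23). Dsg3, an adhesion protein of basal keratinocytes, had an interaction of 0.76 (adjusted p = 0.0449), which was lost in 13 of the 17 fits that left out 1 library. Kit, a receptor of mast cells and melanocytes, had a higher MC903 effect in BLT1 KO (adjusted p = 0.0418), from 13.6 to 19.9 cpm in ethanol skin against 28.8 to 48.2 cpm in wild-type, a call lost in 12 of them. Aqp5, a water channel of salivary glands, had -3.41 (adjusted p = 0.0261), lost in 5, with 20.9 cpm at the highest in BLT1 KO ethanol skin. Nnt, a mitochondrial transhydrogenase, part of which is deleted in a C57BL/6 substrain, was 40.2 to 53.7 cpm in BLT1 KO and 11.2 to 31.6 cpm in wild-type ethanol skin (interaction -1.16 ± 0.24).

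Genes with the smallest p for MC903 in wild-type rose in BLT1 KO as well. Cdhr1, the photoreceptor cadherin, went from 0.74 to 1.99 up to 117.3 to 209 cpm in wild-type and from 0.817 to 1.44 up to 168 to 173 cpm in BLT1 KO (interaction 0.30, -0.34 to 0.94). Krt6b and Krt6a, keratins of activated epidermis, rose by 6.15 and 5.43 in BLT1 KO and by 5.51 and 4.44 in wild-type, without a called difference. Of these 10 genes, Klk13 and Rbp2 had a called interaction (1.85 and 1.37).

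The wild-type cohorts were compared in the same way. With cohort A alone as wild-type 1830 genes were called and with cohort B alone 1010. Of the 1924 genes, 661 (34.4%) were called in all 3 fits with the same direction, and these fits share the 6 BLT1 KO libraries. The MC903 effect of cohort B minus that of cohort A, tested among wild-type libraries, gave 0 called of 26175 genes with edgeR, with 2853 (10.9%) at an unadjusted p under 0.05, and 572 called with DESeq2. Leaving out the cohort A library skin1 or skin3 raised the edgeR count to 410 or 624. The same share at an unadjusted p was 21.6% for the interaction with genotype. That test used 17 libraries and 27679 genes and the cohort test 11 libraries, so these shares cannot be compared directly.

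The MC903 effects of 3 other day 8 groups, each fitted alone and without a test between groups, are given beside the named genes. In the anti-Gr1 group, MC903 raised Gjb2 (2.77), Has3 (2.05), Etv4 (2.19) and Ccnb1 (1.39), all called (group background 32.6%), and 12 of 20 cell cycle genes. Salivary gland markers summed to 45618 to 446530 cpm in the ethanol and 24.26 to 11288 cpm in the MC903 libraries of this group, and 68.478 to 129.14 and 423.15 to 10966 cpm in those of the PBS group, and their part in these effects was not tested. In PBS-injected wild-type (3.99%, of which 3.26% higher and 0.721% lower) and TSLPR KO (2.45%) none of these 4 genes was called, with values of 0.52 to 1.19 and 0.33 to 0.65, and none of the 20 cell cycle genes was called in either by edgeR. Hbegf rose in all 3 groups (3.17 in anti-Gr1, 3.07 in PBS and 2.34 in TSLPR KO). Rnase2b was not called in any of them, at -1.0, -0.47 and -1.31.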

How the data were processed

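RNA was sequenced from whole cheek skin by poly(A) selection, and 17 libraries of day 8 were compared. The authors deposited raw counts per gene, made, per the labels' processing notes, with TopHat, TopHat2, Bowtie2 and HTSeq on mm10. The annotation release and the strand setting are not given in the sources used here, so reads of overlapping or antisense genes cannot be told apart. Of 46078 gene IDs, 45229 matched a GENCODE M21 symbol, from which coordinates were also taken, and promoters came from RefSeq.

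Unassigned reads (no feature 9.4% to 15.2%, ambiguous 1.9% to 2.5%) stayed out of totals and tests. Genes with at least 10 counts in total were tested with edgeR 4.0.16 (TMM scaling, quasi-likelihood test, Benjamini-Hochberg adjustment over all genes tested) in R 4.3.3. The model held genotype and treatment groups and the wild-type cohort, and "called" means an adjusted p under 0.05. Two-sided p-values and 95% intervals come from this fit. Alternatives were DESeq2 1.42.0, limma-voom (limma 3.58.1), other scaling and filters, single cohorts, PBS-injected wild-type libraries, a replicate block and leaving out each library. The script was tested on simulated counts. Levels are CPM, and list levels are means of log2(cpm + 0.5).

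Named genes were the leukotriene B4 pathway, the 15 genes of each direction ranked first by interaction p that averaged 1 cpm or more in a group, called list members, 10 cytokines the study plots, the most abundant list members and the 10 genes with the smallest p for MC903 in wild-type. The members and lists were chosen with earlier results of these data known. Krt85 and Prpmp5 of the lists had no matching gene. Some called list members are given only in counts, and a gene that this rule names is not reported here.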

Additional observations from a re-analysis of the deposited data

Results flagged for a closer look

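The MC903 effect differed between BLT1 KO and wild-type by an interaction test for 1924 genes (edgeR, adjusted p under 0.05). Genotype and library series cannot be told apart in any of these values. For 14 of the genes with a higher effect and the smallest p, the log2 differences were 4.03 for Has3, 2.76 for Etv4, 3.08 for Pi15, 4.86 for Gjb2, 2.44 for Ccnb1, 3.37 for Bub1, 3.56 for Bnc1, 3.93 for Kcnh1, 2.70 for Bub1b, 2.45 for Ncapg, 4.0 for Tyrp1, 2.37 for Kif22, 2.20 for Aspm and 2.86 for Kif14.

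Among the 15 with a lower effect, they were -3.54 for Rnase2b, -1.37 for Chit1, -4.40 for Ear6, -1.81 for Oas1f, -2.40 for Cldn23, -1.42 for Rgcc, -2.62 for Cfap57, -1.56 for 2310050C09Rik, -2.17 for Fmo5, -1.18 for Bcl6, -1.57 for Otud1, -1.44 for Scin, -0.96 for Por, -1.88 for Slc25a33 and -1.59 for Adh7. All 29 genes were called in every fit that left out 1 library, 24 of them with the hair follicle covariate and 2 with PBS-injected wild-type only.

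A library of wild-type MC903 skin stood apart from the other 4 for 2 gene lists, of 78 groups of list levels examined, where chance marks about 1 in 20. The mean log2 level of epidermal barrier genes was 6.563 in the cohort A library skin4, and that of salivary gland markers was 1.001 in the cohort A library skin1.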

How the results depend on the processing

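The count of 1924 genes was 3157 with DESeq2, 1010 with cohort B alone, 8 with PBS-injected wild-type only, 193 with the hair follicle covariate and 1227 to 2392 when 1 library was left out. The share of higher calls was 62.5%, 12.5% with PBS-injected wild-type only and 74.1% with the covariate. The wild-type effect, 6167 genes, was 2304 with cohort B alone (5086 to 6426 leaving out 1 library). The MC903 contrast, 184 genes, was 1427 with DESeq2, 59 without the cohort term, 56 with cohort A alone, 2083 with cohort B alone, 2594 with PBS-injected libraries added and 12 to 973 leaving out 1 library. The cohort difference, 0 genes, was 572 with DESeq2, 285 without a filter and 0 to 624 leaving out 1 library. Causes were not tested.

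Replicate numbers did not pair samples in BLT1 KO or cohort B (correlations of same-numbered deviations -0.02, -0.038 and 0.044 in BLT1 KO, -0.035 and 0.003 in cohort B), cohort A, whose labels repeat numbers, could not be checked, and the replicate block gave 1748 genes.

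Among single genes run under every alternative, directions turned for these values: with limma-voom Cxcl3 (0.10) and Cxcl10 (0.43); without the cohort term Cxcl9 (-0.16); with cohort A alone Tslp (0.88), Il33 (-0.35), Cxcl2 (-0.14) and Cxcl9 (-0.96); with cohort B alone Ltb4r1 (0.07), Cxcl1 (0.68), Cxcl3 (0.31) and Cxcl10 (1.24). With PBS-injected wild-type only they turned for Ltb4r1 (0.25), Lce1c (0.29), Krt1 (0.11), Cxcl1 (0.63), Cxcl2 (-0.38) and Cxcl11 (1.06), and with the covariate for Hoxc13 (-0.04), Cxcl1 (0.16), Cxcl2 (-0.55) and Cxcl9 (-0.05). Leaving out 1 library turned some values of Cxcl10 (range -0.44 to 0.45), Cxcl9 (-0.31 to 0.82), Cxcl11 (-0.84 to 0.09), Cxcl1 (-1.91 to 0.19) and Cxcl3 (-1.18 to 0.73). Of other genes, S100a9 (0.37) and Alox5ap (0.10) turned with cohort B alone and Cdhr1 (-1.10), Dbp (0.08) and Ptgr1 (0.08) with PBS-injected wild-type only. Of the comparisons run under every alternative, 2722 kept direction and call, 488 lost the call and 36 turned.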

Other observations

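Values of 10 circadian clock genes, chosen after their values were seen, are given for ethanol skin as the BLT1 KO minus wild-type log2 difference. They were 2.42 for Per2, 2.22 for Dbp, 1.93 for Ciart, 1.86 for Per3, 1.55 for Tef, 1.34 for Nr1d2, 1.32 for Per1 and 1.26 for Cry2, all called (background 13.9% higher and 14.4% lower), -1.11 for Arntl (called lower) and 0.58 for Nr1d1 (adjusted p = 0.0757, edgeR). Clock (0.09) and Cry1 (-0.03), 2 further genes of the clock, were not called. Per2, a repressor of the clock, was 85.7 to 123.7 cpm in BLT1 KO and 9.80 to 46.1 cpm in wild-type, with an interaction of -0.95 (adjusted p = 0.0458). Dbp, a clock output factor, was 125.2 to 205 and 23.1 to 74 cpm, with an interaction of -0.31 that was not called. Hours of collection are not given in the sources used here.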
